A study of Mus musculus with 14 samples.

Results

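The core pluripotency factors described here were 10 mouse genes, Pou5f1, Nanog, Sox2, Klf4, Klf2, Zfp42, Esrrb, Tbx3, Fgf4 and Sall4. The 10 genes were chosen with earlier results of these data known, whereas their probes were found by gene name alone, with no measured value used. Every gene spot whose name in the array annotation was one of the 10 was taken, which gave 14 probes of 41174 gene probes on the array. These probes covered 9 of the 10 genes, out of 27962 gene names. No probe carried the name Fgf4, so this gene was not analysed here. Klf2, Zfp42, Esrrb, Tbx3 and Sall4 had 2 probes each and the other 4 genes had 1. In total 12 of the 14 probes were well above background on all 14 arrays.

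The probes were read on 1-colour Agilent whole mouse genome arrays, in 14 blastocyst samples at embryonic day 4.0 (E4.0), each on an array of its own. Of these, 4 were clones made by cell fusion (fusion clones) and 4 were clones made by nuclear injection (injection clones). Both kinds were female and came from cumulus cells, the somatic cells around the ovulated oocyte, whose nucleus was brought into an oocyte without a nucleus of its own. The controls were 3 male and 3 female embryos from in vitro fertilization (IVF). All embryos had been cultured in KSOM medium to the blastocyst stage. The labels give no genotype for any of the 4 groups, although the series' design text calls the controls matched for it. The study's methods give a BDF1 background for donors, oocytes and IVF embryos, and describe donor mice that were heterozygous for an Xist knockout. The labels' extraction text speaks of epiblasts and extraembryonic regions of single embryos, whereas the tissue is labelled blastocyst. Nothing says that the embryos of a group came from separate cultures or days, so p-values measure only the spread between these samples.

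Each group lay on a slide of its own (4 slides). Per the file headers, all clone arrays were read on 1 scanner with Feature Extraction version 10.5.1.1 and all IVF arrays on another scanner with version 9.5.3.1. Clone against IVF can therefore not be told apart from scanner and software version in any comparison, the one of all 8 clones with all 6 IVF embryos included. Group and slide can also not be told apart in any comparison of 2 groups, while the comparison over all embryos spans 2 slides on each side but does not balance sex. The share of spots well above background ran from 57.4% to 65.2% over the arrays. Processed intensities below 0 were found on the IVF arrays only (6790 to 9981 gene spots per array, against 0 on the clone arrays). A blastocyst holds inner cell mass and trophectoderm, and in such bulk samples fewer cells of a type and less RNA per cell cannot be told apart.

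Most proteins of these genes help keep cells of the inner cell mass and embryonic stem cells in a state from which every tissue of the fetus can form. POU5F1 (also called OCT4), SOX2 and NANOG are transcription factors that often bind the same regulatory sites, their own genes included, while KLF2, KLF4, ESRRB and TBX3 belong to the wider network of the naive state, where LIF signalling feeds KLF4 and TBX3. SALL4 is a zinc finger partner of this network, Zfp42 (also called Rex1) is one of its best known target genes, and FGF4 is the signal by which epiblast cells direct their neighbours to primitive endoderm.

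POU5F1 binds an octamer and SOX2 a short motif that often lies next to it, and the promoter stretches below are shown because they carry the octamer core just upstream of members whose signal is described further on. They were read from the RefSeq promoter table (GRCm38.p6), which held 8 of the 10 members (Pou5f1, Nanog, Sox2, Klf4, Klf2, Zfp42, Esrrb and Fgf4). The octamer core TTTGCAT, on either strand, lay in the 250 bases before the start of 3 of these 8 genes, Nanog, Sox2 and Zfp42, and in 4.12% of all promoters of the same length. The SOX core ACAATG lay in 2 of the 8, Pou5f1 and Nanog, and in 10.7% of all promoters. The KLF core CCACCC lay in 5 of the 8 (Pou5f1, Nanog, Klf2, Zfp42 and Esrrb) and in 28.1% of all promoters. The ESRRB core AAGGTCA lay in none of the 8 and in 4.08% of all promoters. A gene was counted if any of its listed promoters matched, whereas the percentages are per promoter, so they are not like for like. Capitals mark the octamer and SOX cores, each stretch runs 5′ to 3′ on the strand of its gene, and a match is a description of letters only.
Nanog, chr6:122707387-122707446, plus strand: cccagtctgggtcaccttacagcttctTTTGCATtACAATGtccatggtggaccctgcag
Zfp42, chr8:43307162-43307221, minus strand: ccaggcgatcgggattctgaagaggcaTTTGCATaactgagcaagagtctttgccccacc
Sox2, chr3:34649869-34649928, plus strand: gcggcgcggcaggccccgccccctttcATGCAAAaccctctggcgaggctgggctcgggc
In Nanog the octamer core stands 1 base away from the SOX core, in Zfp42 it stands alone in this stretch, and in Sox2 it lies on the opposite strand.

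Of the trio of master factors, Nanog was higher in the clones, whereas Pou5f1 and Sox2 did not pass the test in any comparison. Values are log2 of the quantile-normalized processed signal, so that a difference of 1 is a 2-fold difference, and levels are compared between embryos within a probe. Where a gene has 2 probes, brighter and dimmer are names for them by mean signal, and nothing is read from that order. The Nanog probe read 13.76, 13.12, 13.06 and 13.59 in the fusion clones and 12.89, 13.56, 14.08 and 13.11 in the injection clones. It read 13.09, 12.19 and 12.06 in the male IVF embryos and 11.57, 13.10 and 12.23 in the female IVF embryos. One IVF embryo of each sex lay among the clones, so the groups overlapped, while the other 4 IVF embryos lay below all 8 clones. Over all embryos the difference was 1.02 ± 0.26 (SE, 8 clones against 6 IVF embryos), a 2.03-fold higher mean in the clones, at a limma adjusted p of 0.0149. Against the female IVF embryos alone, fusion clones differed by 1.08 ± 0.39 (adjusted p = 0.139) and injection clones by 1.11 ± 0.45 (adjusted p = 0.207). These 2 comparisons share their 3 control arrays, and neither passed the adjusted threshold.

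Pou5f1 read 14.23, 14.11, 14.35 and 13.78 in the fusion clones and 13.82, 14.34, 14.76 and 14.46 in the injection clones. It read 14.63, 14.62 and 14.30 in the male and 14.44, 14.92 and 14.26 in the female IVF embryos. All groups overlapped, and the clones' mean differed from that of the IVF embryos by -0.30 (95% interval -0.65 to 0.05, adjusted p = 0.228). Sox2 was spread more widely, from 9.72 to 11.33 in the fusion clones, 10.71 to 11.96 in the injection clones, 9.98 to 11.43 in the male and 10.37 to 10.97 in the female IVF embryos. The difference between all clones and all IVF embryos was 0.17 for Sox2 (95% interval -0.63 to 0.97, adjusted p = 0.767), an interval that leaves room for nearly a 2-fold change upward. The lowest Sox2 values of all were those of fusion clones 4 and 1, and the highest those of injection clones 2 and 3.

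**Figure D1:**
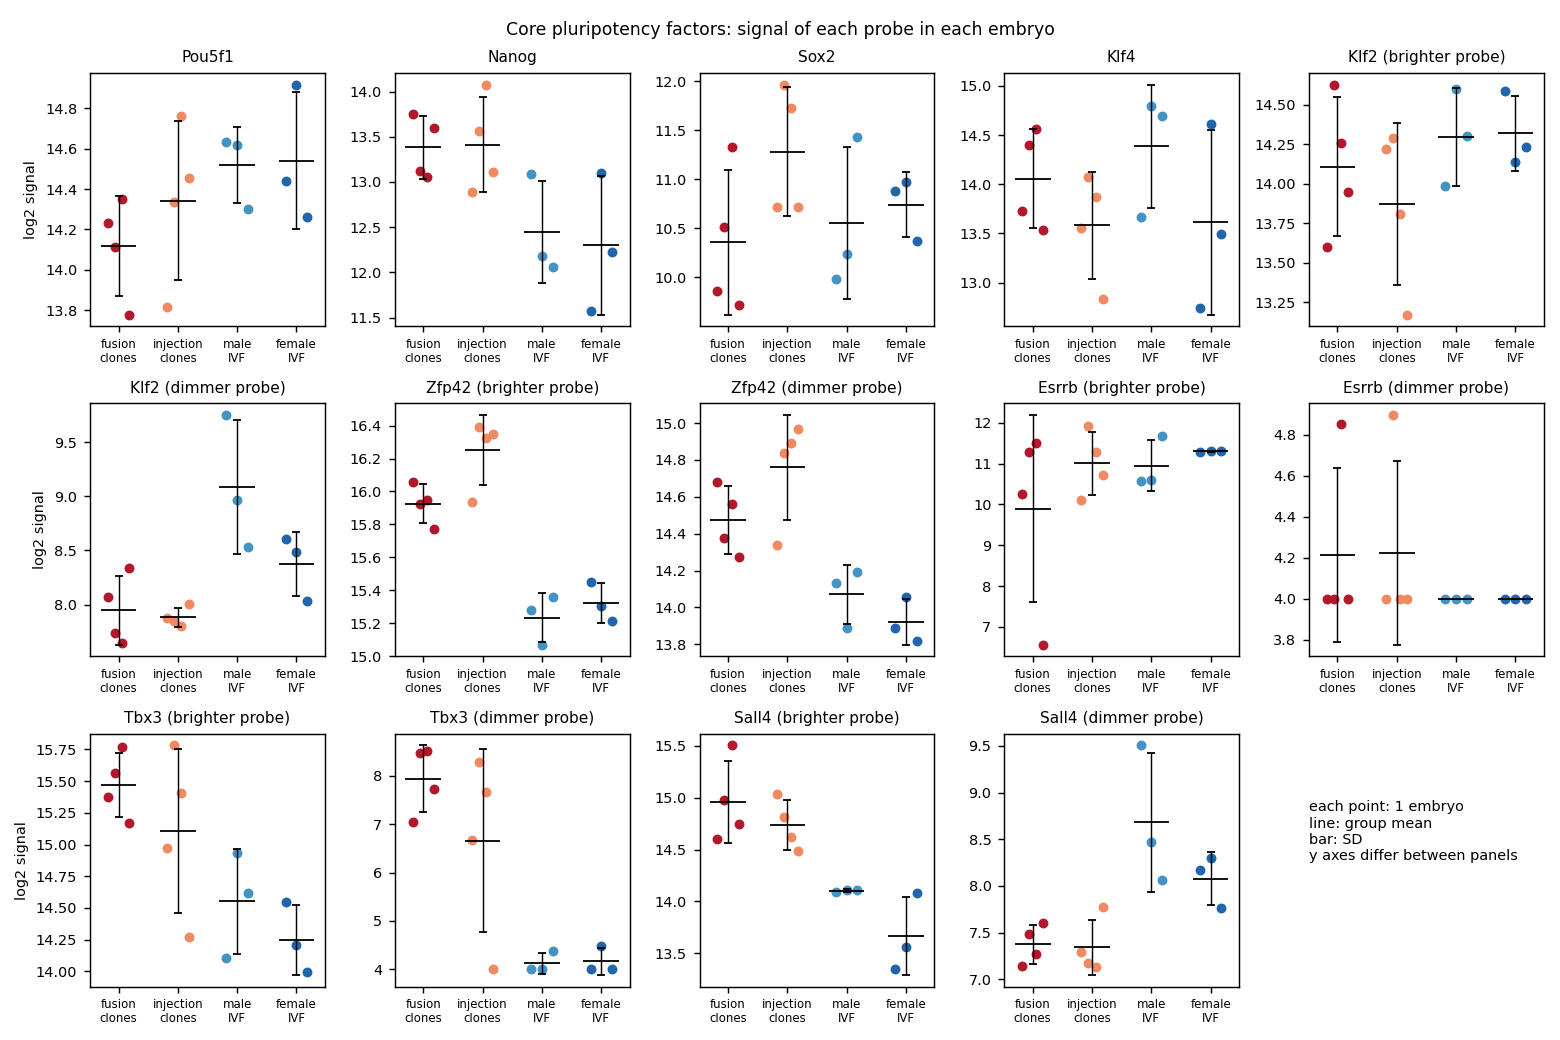
Log2 signal (y axis) of each of the 14 member probes in each embryo, by group (x axis); each point is 1 embryo, lines are group means and bars the SD. For Zfp42 and for the brighter Sall4 probe all clones sit above all IVF embryos, while Pou5f1, Sox2 and Klf4 overlap between all groups.

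Among the KLF factors, neither gene was called on its brighter probe. KLF4 is one of the factors used to reprogram somatic cells, and its signal was wide in every group, from 13.53 to 14.56 in fusion clones, 12.83 to 14.08 in injection clones, 13.66 to 14.80 in male and 12.74 to 14.61 in female IVF embryos. The difference between all clones and all IVF embryos was -0.18 (95% interval -0.94 to 0.58, adjusted p = 0.740). The brighter Klf2 probe ran from 13.17 to 14.63 in the clones and from 13.99 to 14.60 in the IVF embryos, with a difference of -0.32 (adjusted p = 0.314). The dimmer Klf2 probe read 8.07, 7.74, 7.64 and 8.33 in the fusion clones and 7.88, 7.85, 7.81 and 8.01 in the injection clones. It read 9.75, 8.97 and 8.54 in the male and 8.60, 8.48 and 8.04 in the female IVF embryos. On this probe only female IVF embryo 3 came within the range of the clones, and the clones were lower (-0.81 ± 0.22, SE, adjusted p = 0.0184). This call over all embryos was lost with the deposited log2 values in place of quantile normalization (-0.71, adjusted p = 0.0526). Against the female IVF embryos alone, neither fusion clones (-0.43, limma adjusted p = 0.333) nor injection clones (-0.49, limma adjusted p = 0.169) were called. Male IVF embryos read 0.71 above female ones on this probe (limma adjusted p = 0.673).

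Of the naive network, Zfp42 and Tbx3 were higher in clones on both of their probes, and Esrrb was called on neither. The brighter Zfp42 probe read 16.06, 15.92, 15.95 and 15.77 in the fusion clones and 15.93, 16.39, 16.33 and 16.35 in the injection clones. It read 15.28, 15.07 and 15.36 in the male and 15.45, 15.30 and 15.21 in the female IVF embryos. The clones and the IVF embryos did not overlap, with a gap between the lowest clone at 15.77 and the highest IVF embryo at 15.45. Over all embryos the difference was 0.81 ± 0.12 (SE, 8 against 6), 1.75-fold, with a limma adjusted p of 0.000633. The second Zfp42 probe, whose centre lies 46 bases from that of the first, gave 0.62 ± 0.13 (adjusted p = 0.00528), again without overlap.

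Against the female IVF embryos alone, the brighter Zfp42 probe was called in the injection clones (0.93 ± 0.17, 1.90-fold, adjusted p = 0.0447) and not in the fusion clones (0.60 ± 0.16, adjusted p = 0.0688). The injection call was lost without any 1 of the 7 arrays of that comparison (adjusted p from 0.0580 to 0.119). It was also lost under 75th percentile scaling (0.0744), with the deposited values (0.0981), with normexp (0.0511) and with a floor of 1 (0.0972). Without 1 array the difference ran from 0.87 to 1.03, while calls among all probes fell from 1184 to between 162 and 1043. Fusion and injection clones differed by -0.33 on this probe (95% interval -0.64 to -0.01, adjusted p = 0.811), which did not pass the adjusted threshold.

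TBX3 is a T-box factor with a role in naive cells. Its brighter probe read 15.38, 15.56, 15.77 and 15.17 in the fusion clones and 14.97, 15.78, 15.41 and 14.27 in the injection clones. It read 14.11, 14.93 and 14.62 in the male and 14.54, 14.21 and 13.99 in the female IVF embryos. All 4 fusion clones lay above all IVF embryos, whereas injection clone 4 lay within the IVF range. The fusion clones exceeded the female IVF embryos by 1.22 ± 0.23 (SE, 4 against 3), 2.33-fold, at an adjusted p of 0.0270, and the injection clones by 0.86 ± 0.38 (adjusted p = 0.241). The fusion call was lost without fusion clone 1, 2 or 3 or without female IVF embryo 2 or 3 (adjusted p from 0.0566 to 0.0749). It was also lost with male IVF embryos as control (0.0849). Without 1 array the difference ran from 1.09 to 1.37, while calls among all probes fell from 3033 to between 1114 and 2729. Over all embryos the difference was 0.89 ± 0.23 (adjusted p = 0.0168).

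The dimmer Tbx3 probe separated the embryos more sharply. It was well above background on all 4 fusion clones and 3 of 4 injection clones, against 1 of 3 male and 1 of 3 female IVF embryos. The fusion clones read 7.05, 8.46, 8.52 and 7.74 and the injection clones 6.67, 8.29, 7.67 and 4.0, where 4.0 is the floor set for dim signals. The IVF embryos read 4.0, 4.0 and 4.37 (male) and 4.0, 4.49 and 4.0 (female), so that injection clone 4 alone among the clones was at the level of the IVF embryos. The difference was 3.78 ± 0.40 for fusion clones against female IVF embryos (adjusted p = 0.00570) and 3.16 ± 0.59 for all clones against all IVF embryos (adjusted p = 0.00250). Its size rests on the floor and the scaling, from 1.76 to 5.09 over all embryos across the settings tried, and it was called in each of them that tested it. For injection clones against female IVF embryos it was 2.49 (adjusted p = 0.212), and 3.38 without injection clone 4 (adjusted p = 0.0319).

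ESRRB is an orphan nuclear receptor of the naive network, and its brighter probe was marked by 1 embryo. It read 10.25, 11.27, 11.51 and 6.56 in the fusion clones and 10.11, 11.91, 11.28 and 10.72 in the injection clones. It read 10.58, 10.59 and 11.67 in the male and 11.29, 11.31 and 11.30 in the female IVF embryos. Fusion clone 4 lay far below the other 13 embryos, which all fell between 10.11 and 11.91. The difference of the fusion clones from the female IVF embryos was -1.40 (95% interval -4.23 to 1.44, adjusted p = 0.483) with this clone and -0.29 (adjusted p = 0.633) without it. The other Esrrb probe was well above background on fusion clone 3 (4.85) and injection clone 2 (4.90) only and at the floor in the remaining 12 embryos.

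Sall4 gave opposite answers on its 2 probes. The brighter probe, designed on transcript AK017633, read 14.60, 14.98, 15.51 and 14.75 in the fusion clones and 15.03, 14.82, 14.62 and 14.49 in the injection clones. It read 14.09, 14.11 and 14.11 in the male and 13.35, 13.56 and 14.08 in the female IVF embryos. All clones lay above all IVF embryos, by 0.96 ± 0.18 on average (SE, adjusted p = 0.00250). Against the female IVF embryos the fusion clones were higher by 1.29 ± 0.30 (2.45-fold, adjusted p = 0.0440) and the injection clones by 1.07 ± 0.23 (adjusted p = 0.0620). The fusion call was lost without any 1 of its 7 arrays (adjusted p from 0.0567 to 0.105). It was also lost under 75th percentile scaling (0.0549), with the deposited values (0.0644), with a floor of 1 (0.0601), with no filter on dim probes (0.0638) and with male IVF embryos as control (0.0901).

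The dimmer Sall4 probe, designed on NM_201395, read 7.14, 7.49, 7.27 and 7.60 in the fusion clones and 7.29, 7.17, 7.13 and 7.77 in the injection clones. It read 9.51, 8.47 and 8.07 in the male and 8.17, 8.30 and 7.76 in the female IVF embryos. Here the clones were lower (-1.02 ± 0.23, SE, adjusted p = 0.00686), with injection clone 4 and female IVF embryo 3 at nearly the same value. Against female IVF embryos the differences were -0.70 (fusion, adjusted p = 0.0929) and -0.74 (injection, adjusted p = 0.125).

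**Figure D2:**
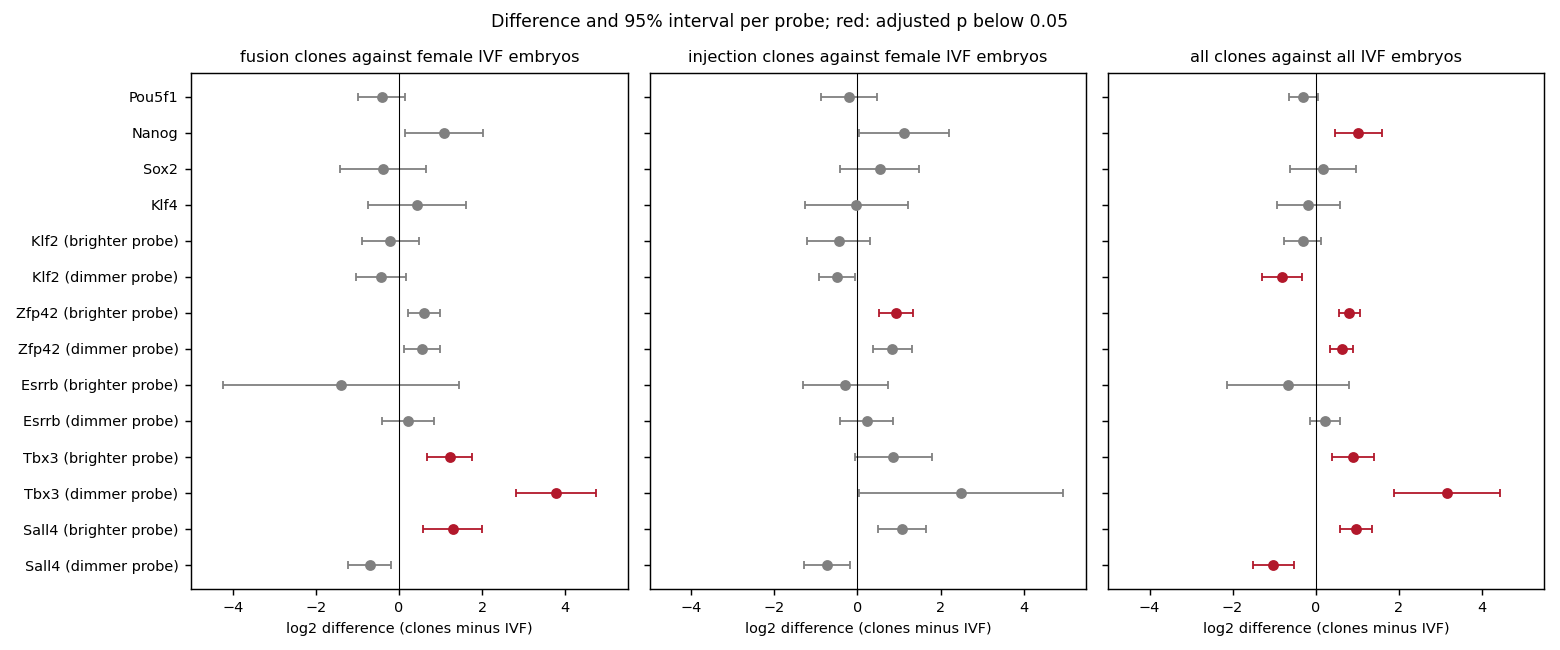
Log2 difference (x axis, clones minus IVF embryos) of each member probe (y axis) in 3 comparisons, with 95% intervals from limma; red marks an adjusted p below 0.05. Of the 14 probes, 3 are called against female IVF embryos in fusion clones, 1 in injection clones and 8 over all embryos.

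Counted over the members, 3 of 14 probes rose in fusion clones against female IVF embryos, both Tbx3 probes and the brighter Sall4 probe, and none fell. Of all 32370 probes tested there, 4.35% were called higher and 5.02% lower, 9.37% in all. In injection clones against the same controls 1 of 14 rose, the brighter Zfp42 probe, against 1.52% of all probes higher, 2.09% lower and 3.61% in all. Over all embryos 6 of 14 probes were higher (Nanog, both of Zfp42, both of Tbx3 and the brighter of Sall4) and 2 lower (the dimmer probes of Klf2 and Sall4), beside 8.39% of all probes higher, 12.2% lower and 20.6% in all. Probes of the same gene are not independent, and the Zfp42 probes, with centres 46 bases apart and r = 0.88 over the embryos, are close to a repeat. With the slide as a random block, the same 8 probes were called. The median difference of all tested probes was -0.12, -0.08 and -0.07 in these 3 comparisons, and 0.04, 0.07 and 0.12 with the deposited values. The 8 probes called over all embryos kept their direction under every setting tried.

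Groups without overlap were also counted. For fusion clones against female IVF embryos 5 member probes lay wholly above and 1 wholly below, and 10.5% and 15.4% of all probes did so. For injection clones the counts were 3 and 1, beside 8.4% and 12.5% of all probes. For all clones against all IVF embryos 3 probes lay wholly above, both of Zfp42 and the brighter of Sall4, and 0 below, beside 2.26% and 4.03%. The neighbouring Zfp42 probes again count separately here.

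Between fusion and injection clones no member probe was called, nor any of the 32187 probes tested (0.0%, with a smallest limma adjusted p of 0.256 and 1975 probes at an unadjusted p under 0.05). The widest member gaps were those of the dimmer Tbx3 probe (1.29, 95% interval -0.89 to 3.47), Esrrb (-1.10, -3.72 to 1.51) and Sox2 (-0.92, -2.01 to 0.16), so the intervals leave room for differences of more than 2-fold. Between male and female IVF embryos 0 of 13 member probes tested were called, beside 0.0593% of all probes (19 of 32021). Paired by replicate number, these embryos gave 0 calls among the members and 0 among 32006 probes (smallest limma adjusted p 0.192, with 2525 probes at an unadjusted p under 0.05). The dimmer Klf2 probe (0.71) and Klf4 (0.77) had the largest differences there. The study's methods name a significance level and a fold filter without saying whether p-values were adjusted. The rule was read as an unadjusted p under 0.05 and at least 2-fold. Member calls then numbered 4 for fusion against female, 3 for injection against female, 0 for fusion against injection and 0 for male against female. For all clones against all IVF embryos they numbered 3. In the same order 17.3%, 14.1%, 2.43%, 5.83% and 15.8% of all probes were called. That is more than by adjusted p in each comparison of 2 groups, but fewer over all embryos (15.8% against 20.6%).

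For the 5 genes with 2 probes, the differences on both were set side by side. The probe called dimmer above is the 5′ one in each, and the Sall4, Tbx3 and Esrrb probes of a pair were also designed on different transcripts, so that position, transcript and signal level cannot be told apart. Over 2250 genes with 2 probes lying 300 to 20000 bases apart the 5′ probe gave a higher clone-minus-IVF difference than the 3′ probe by a median of 0.26, with the 5th to 95th percentile from -0.99 to 1.70. Sall4 stood below this range, its 5′ probe giving -1.99 relative to its 3′ probe over a distance of 3839 bases. Klf2 (-0.50 over 1376 bases) lay within it, and the adjoining Zfp42 probes differed by -0.19. For Tbx3 and Esrrb no such gap is given, since their 5′ probes were at the floor in 4 of 6 and in all 6 IVF embryos. In 34.9% of the 2250 genes the sign was that of Sall4.

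**Figure D3:**
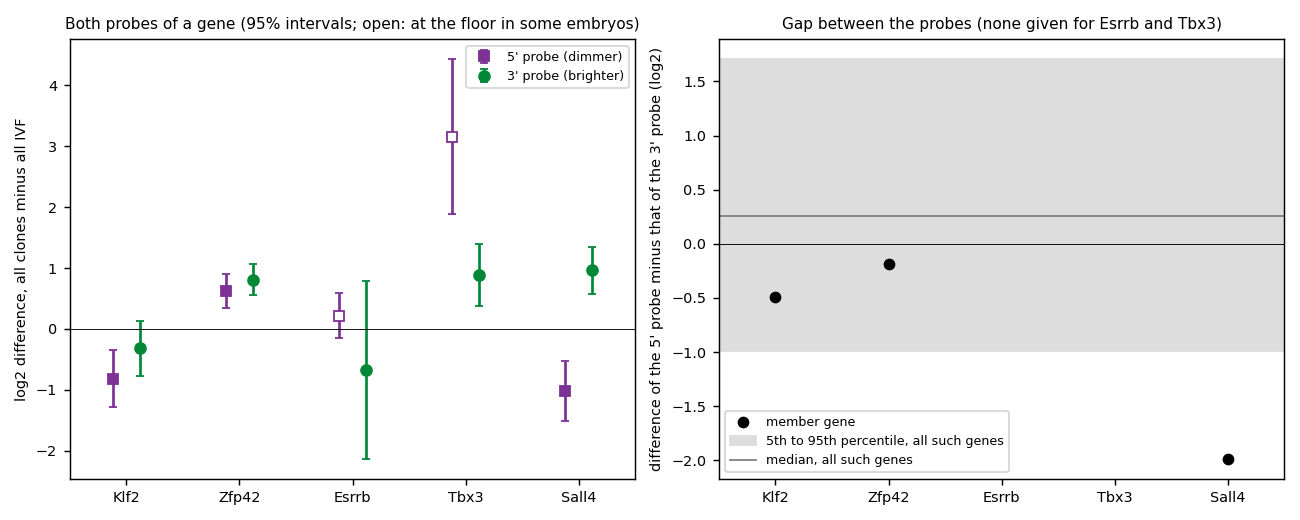
Left, log2 difference between all clones and all IVF embryos (y axis, 95% intervals; open symbols, at the floor in some embryos) of the 5′ and 3′ probe of each member gene with 2 probes (x axis); right, the 5′ value minus the 3′ value (y axis) for Klf2, Zfp42 and Sall4 against the median and the 5th to 95th percentile of 2250 genes. Sall4 lies below that range, at -1.99.

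Signal level was also set beside the dim probes, since processed intensities below 0 were found on the IVF arrays only. Among 2170 probes within 0.5 of the mean level of the dimmer Sall4 probe, the median difference between all clones and all IVF embryos was -0.01, 15.1% were called lower, and 15.9% lay below this probe's own difference. Around the dimmer Klf2 probe the median was -0.04 (2130 probes), with 14.8% called lower and 21.1% below it. Around the dimmer Tbx3 probe, whose own difference has no fixed size because of the floor, 9.09% of 2859 probes were called higher. With normexp background correction of the median signal, both dim probes that were lower and the Tbx3 probe were still called over all embryos.

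Embryos of the same group differed from one another by gene-specific amounts. Klf4 was among the most variable probes of its signal level in every group: 94.7%, 91.5%, 90.2% and 97.7% of probes of like level had a smaller SD in fusion clones, in injection clones and in male and female IVF embryos. Nanog followed, with 75.1%, 85.2%, 81.4% and 93.8%. The brighter Zfp42 probe was steadier, with 20.1%, 49.5%, 21.2% and 16.8%. Esrrb ranged from the least variable end (SD 0.01 over 3 female IVF embryos, 0.0462% of like probes with a smaller SD) to the most variable (SD 2.29 over 4 fusion clones, 99.7%). Over the 12 probes well above background on every array, the SD exceeded the median of probes of like level in 8 probes in each clone group, 6 in male and 5 in female IVF embryos.

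The lowest and highest embryo of each group was counted over the 9 genes, on the brighter probe where there were 2. Fusion clone 4 was lowest of its group for 6 of 9 (Pou5f1, Sox2, Klf4, Zfp42, Esrrb and Tbx3), beside 28.3% of the 17470 probes well above background on every array. On its array fewer spots were well above background than on any other (57.4%), and it had the lowest primitive endoderm marker mean (8.37, described below), whose part in its low member values was not tested. Injection clone 2 was highest of its group for 6 of 9 (19.2% of all such probes), and fusion clone 3 for 6 of 9 (22.3%). Male IVF embryo 1 was lowest of its group for 6 of 9 (31.3%). Replicates have no order, and these are descriptions of single embryos.

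After each group's mean was subtracted, the deviations of 14 embryos were set against each other, as descriptions without a test, since all probes share the same arrays, amplification and normalization. Sox2 moved with Esrrb (r = 0.69, and 0.90 over the 13 embryos without fusion clone 4), with Tbx3 (0.69) and with Klf4 (0.62). Klf2 moved with Tbx3 (0.75) on the brighter probes, and Pou5f1 with Nanog (0.56). Nanog and Sox2 showed next to no relation (-0.09). The 2 Zfp42 probes had r = 0.88, but the 2 Sall4 probes -0.27 and the 2 Klf2 probes -0.38. The dimmer probes of Klf2 and Sall4, both lower in the clones, had r = 0.84 with each other. Male IVF embryo 1 was the highest embryo on both (9.75 and 9.51), and r without it was not computed. Over all probes well above background on every array, the 3 named genes most like Pou5f1 were Casp6 (0.89), Acbd6 (0.86) and Ggt1 (0.86). For Nanog they were Fdps (0.92), Pex14 (0.89) and Mcrip2 (0.88), and for Sox2 Stk31 (0.92), Rnf130 (0.91) and Angel2 (0.90). These are the top values of 17470 probes over 14 embryos, and the 95th percentile of r was 0.57, 0.55 and 0.51 for the 3 factors.

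**Figure D4:**
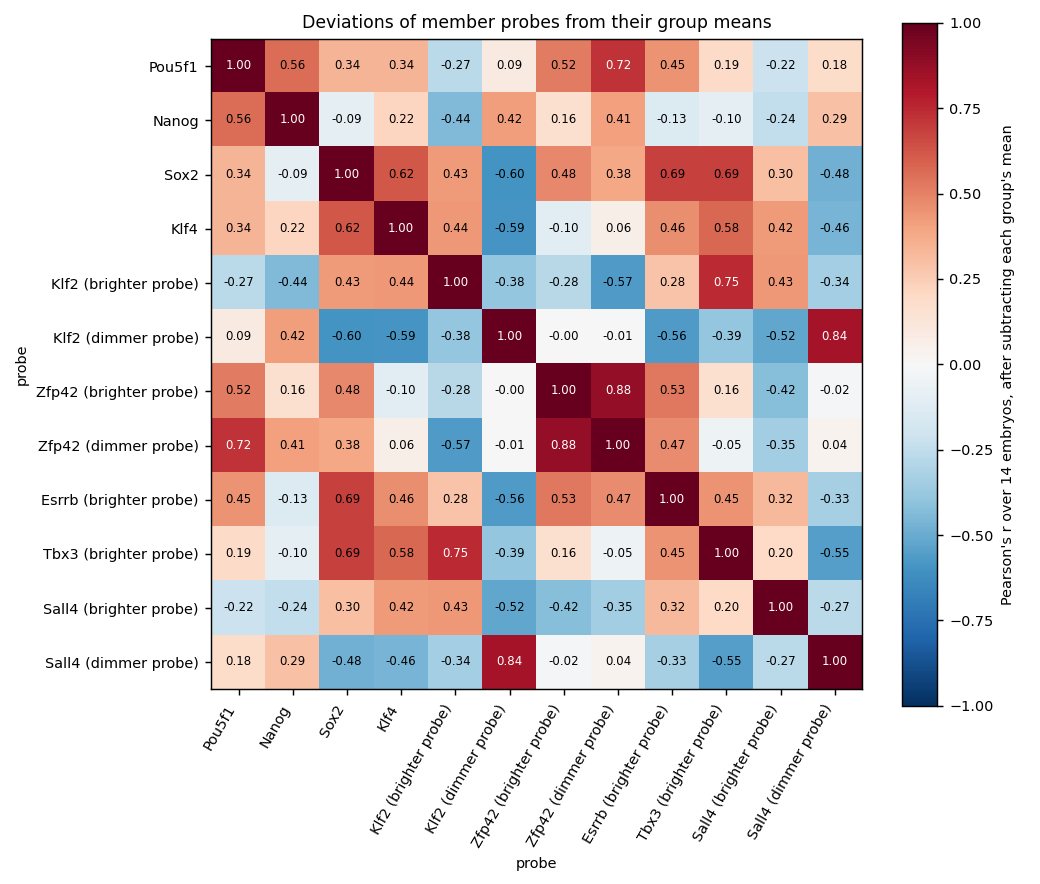
Pearson's r between the deviations of member probes from their group means over 14 embryos (colour and printed value), for the 12 probes well above background on every array (both axes). Sox2, Klf4, Esrrb and Tbx3 had positive values with each other (0.45 to 0.69). Pou5f1 and the brighter Klf2 and Sall4 probes were also positive with each of them (0.19 to 0.75). The dimmer Klf2 and Sall4 probes had 0.84 with each other, with male IVF embryo 1 highest on both, and negative values with Sox2, Klf4, Esrrb and Tbx3.

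Other genes of the network did not share 1 direction. Of 26 further genes of naive or general pluripotency 25 had a probe, and over all embryos 4 were higher and 5 lower in the clones, with a median difference of -0.20 beside -0.07 for all probes and 20.6% of all probes called. The 3 with the smallest p were Zscan10, a zinc finger gene of embryonic stem cells (-2.28, adjusted p = 0.000595), Tet2, which oxidizes methylated cytosine (3.23, adjusted p = 0.000791), and Nr0b1, a partner of POU5F1 also called Dax1 (-4.53, adjusted p = 0.000821). The other 3 higher genes were Nr5a2 (0.72), Dppa3 (0.75) and Fbxo15 (0.45), and the other 3 lower ones Gbx2 (-2.22), Dnmt3l (-0.95) and Mycn (-1.02), listed after their values were seen. Nr0b1 was well above background on all 6 IVF embryos and on 1 of 4 clones of each kind. Gbx2 was so on all 6 IVF embryos, 2 of 4 fusion clones and 3 of 4 injection clones. The sizes of both differences therefore rest in part on the floor. Against female IVF embryos 1 of the 25 was higher and 1 lower in fusion clones, Tet2 and Nr0b1, and 0 higher and 1 lower in injection clones, Zscan10.

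Of 10 genes of the later, formative and primed epiblast 9 were tested over all embryos, and 1 was called, beside 20.6% of all probes. It was Dnmt3b, a DNA methyltransferase, lower in the clones (-1.97, adjusted p = 5.49e-05), and lower also in fusion (-2.14, adjusted p = 0.0122) and injection clones (-2.03, adjusted p = 0.0178) against the shared female controls. The tenth, Fgf5, was well above background on no array. In the LIF pathway 1 of 8 genes was higher and 3 lower over all embryos, with a median difference of -0.24 beside -0.07 for all probes. The kinase gene Pim1 was higher (2.23, adjusted p = 0.00720), and Lifr, the LIF receptor (-2.20, adjusted p = 0.0236), its co-receptor Il6st (-1.72, adjusted p = 0.0490) and Pim3 (-0.79, adjusted p = 0.0245) were lower. Pim1 was well above background on 1 of 3 male and 0 of 3 female IVF embryos, so the size of its difference rests on the floor. Among 4 genes that receive or relay FGF4 signals 3 were called, with a median difference of 0.03. The adaptor Frs2 was higher (0.84, adjusted p = 0.00114) and Fgfr1 (-0.68, adjusted p = 0.0381) and Grb2 (-0.44, adjusted p = 0.0415) lower. In the pairwise comparisons with female IVF embryos, 1 LIF pathway gene (Pim1, fusion clones) and 0 FGF receptor genes were called at the limma adjusted threshold.

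Markers of the other cell types of a blastocyst were read on the same arrays. The mean of 10 primitive endoderm markers ran from 8.37 to 11.35 in fusion clones and 8.94 to 11.24 in injection clones. It ran from 11.40 to 12.94 in male and 12.39 to 13.06 in female IVF embryos. Clones and IVF embryos did not overlap, but only narrowly, with fusion clone 2 at 11.35 and male IVF embryo 2 at 11.40. This lack of overlap rests on Foxa2, at the floor of 4.0 in every clone and at 9.93 or more in the IVF embryos. Over all embryos 5 of the 10 were lower and 0 higher, with a median difference of -2.19, beside 12.2% of all probes lower, 8.39% higher and a median of -0.07. Of the 10, 2 were lower in each clone group against female IVF embryos (Foxa2 and Sox7 in fusion, Foxa2 and Lama1 in injection clones). The 5 were Foxa2, Sox7, Gata4, Lama1 and Dab2, and like the other markers named in these paragraphs they were singled out after their values were seen. Foxa2, a forkhead factor of endoderm, was well above background on all 6 IVF embryos and on no clone, at least 111-fold lower in the clones (adjusted p = 2.69e-10). Within groups, the deviations of the primitive endoderm mean had r = -0.11 with Nanog, 0.19 with Tbx3, 0.21 with Sall4 and 0.46 with Zfp42 over 14 embryos. For the members not called on the brighter probe, r was 0.42 (Pou5f1), 0.59 (Sox2), 0.23 (Klf4), 0.11 (Klf2) and 0.76 (Esrrb). Fusion clone 4 was lowest for both Esrrb (6.56) and this mean (8.37), and r without it was not computed. The part of these markers in the member differences was not tested.

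Trophectoderm markers went both ways. Over all embryos 1 of 9 tested was higher (Hand1, 3.72) and 4 were lower (Elf5, -3.17, Id2, -0.95, Cdx2, -0.60, and Krt18, -0.56), beside 8.39% of all probes higher and 12.2% lower. Their median difference was -0.03, and list means ran from 13.76 to 14.94 over the embryos. These means cover 10 genes in the clones but 9 in the IVF embryos, where Gata2 had no value. Hand1 ranged widely, from 4.0 to 10.97. It was well above background on 0 of 3 male and 1 of 3 female IVF embryos, so the size of its difference rests on the floor. Within groups, the deviations of the trophectoderm mean had r = 0.76 with the brighter Zfp42 probe, -0.59 with the brighter Klf2 probe and 0.06 with Nanog over 14 embryos. With the other members r ran from -0.37 (Sall4) to 0.33 (Pou5f1). Cumulus cell markers, a check for donor or carried-over cells, had list means from 4.78 to 5.57, with 1 of 9 tested higher (Amhr2), 1 lower (Foxl2) and Lhcgr well above background on no array. Among 5 oocyte markers 0 were called by limma in any of the 5 comparisons. The part of these lists in the member differences was not tested either.

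**Figure D5:**
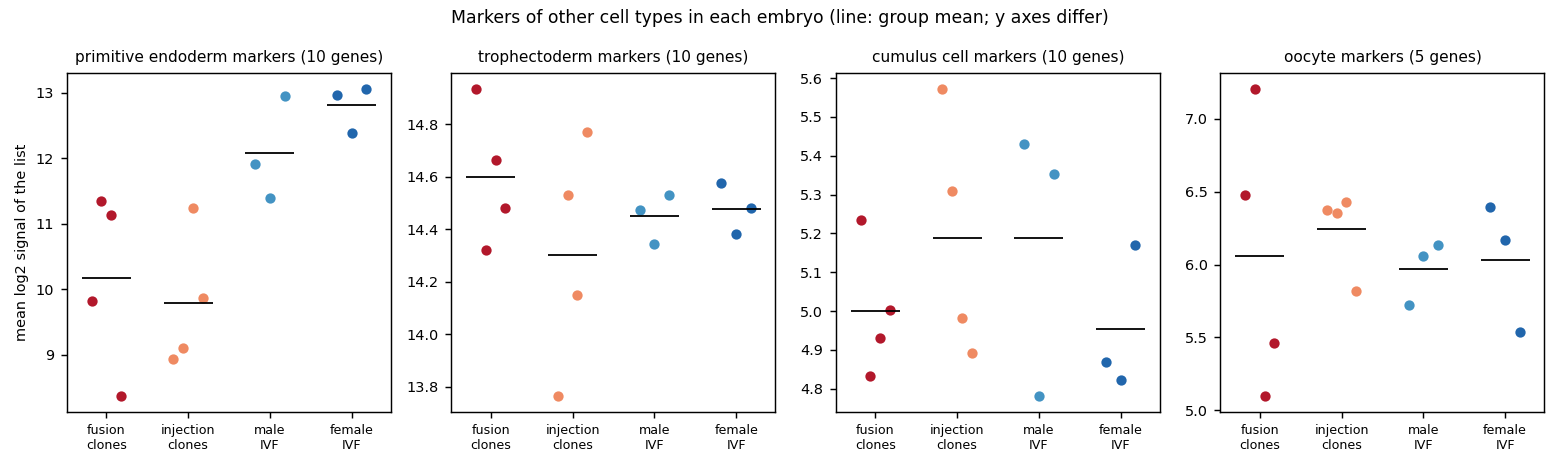
Mean log2 signal (y axis) of marker genes of 4 other cell types in each embryo, by group (x axis); points are embryos and lines group means. The primitive endoderm mean is lower in every clone (8.37 to 11.35) than in every IVF embryo (11.40 to 13.06). The separation is narrow and rests on Foxa2, at the floor in every clone. The other lists overlap. Trophectoderm means of the IVF embryos leave out Gata2, which had no value on those arrays.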

How the data were processed

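RNA of 14 blastocyst samples had been amplified in 2 rounds, labelled with Cy3 and hybridized to 1-colour arrays. The authors deposited the processed intensity of each spot, background-subtracted within the array on a linear scale, from Agilent Feature Extraction (10.5.1 in the submitters' processing notes). A log2 table that the authors deposited for these arrays served as an alternative. No column was left unused (0). Control spots were left out (1639) and outlier-marked spots set to missing. Processed signals were quantile-normalized over the arrays, as the methods appear to state, floored at 16, turned to log2 and averaged per probe. A probe read as well above background by 1 or more arrays of a comparison was tested with limma 3.58.1 (lmFit and eBayes, R 4.3.3, two-sided). Adjusted p-values are Benjamini-Hochberg over all tested probes, called below 0.05. Errors are standard errors, and the number of arrays limits the precision. The test was tried on simulated data. Gene names came from the IVF files, which carry the annotation that the clone files were joined to by probe name. All member probes are reported, with the brightest standing for its gene; up to 3 genes with the smallest p are named from each other list, 3 most like each of Pou5f1, Nanog and Sox2, and markers are given as counts and ranges. The members, lists and tests were chosen with earlier results of these data known. The probe positions, the comparison with probes of like level the correlations without fusion clone 4 and the shares of probes lowest or highest per embryo were added after seeing the data. Male and female IVF embryos of the same number had weakly positive r of deviations (0.145, 0.171 and 0.171), so a fit paired by number is given beside that comparison. Embryos of unlike number were not set beside these, and fusion and injection clone 3 had an r of 0.17 as well. Whether the numbers mark pairs is therefore not known, and the numbers of no other groups were taken as pairs. Python 3.11.15 and matplotlib 3.10.9 made tables and figures. Settings tried were other scalings, background corrections, floors, filters, controls and pooled fits, and leaving out each array.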

Additional observations from a re-analysis of the deposited data

Results flagged for a closer look

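Within the groups of 4 embryos, 28 sets of values were examined for 1 value standing apart from the other 3 by a gap that fills nearly the whole range (Dixon's 95% limit), and 3 passed. Chance alone passes about 1.4 of 28 such sets, but 2 of the 3 cannot be set against it, because all other values were at the floor. The brighter Zfp42 probe in injection clone 1 (15.93) lay below the other injection clones (16.33 to 16.39), and was still above every IVF embryo. Those 2 were on the dimmer Esrrb probe, in fusion clone 3 (4.85) and injection clone 2 (4.90), where the remaining embryos were at the floor. The low brighter-probe Esrrb value of fusion clone 4 (6.56) was not among them. Groups of 3 were not examined.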

How the results depend on the processing

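Over all embryos the 8 called member probes were the same 8 without any 1 array (8 to 8), with the slide block and under most other settings. With the deposited values the dimmer Esrrb probe (2.29) took the place of the dimmer Klf2 probe, and requiring every array to be well above background left 7. The count was 3 at the threshold of the methods, and 4 genes were called with probes averaged per gene, where 5 have a called probe. Against female IVF embryos the 3 calls in fusion clones became 5 with a floor of 32 or a variance trend. They became 4 with normexp, all 14 arrays in 1 fit, both sexes as control or the threshold of the methods. With 75th percentile scaling, the deposited values or a floor of 1 they became 2 (Sall4 lost). They were 1 with male IVF embryos as control, 1 gene with probes averaged per gene, and 1 to 2 without single arrays. Calls among all probes moved as well, from 3033 of 32370 to 3145 (floor of 32), 3238 (variance trend), 3346 (normexp) and 4131 (1 fit). They were 3682 of 33786 with both sexes, 5587 at the threshold of the methods, 2578 with 75th percentile scaling and 2519 with the deposited values. With a floor of 1 they were 2503, with male controls 2311 of 31930, and without single arrays 1114 to 2729. The 1 call in injection clones became 3 at the threshold of the methods, with all 14 arrays in 1 fit or with both sexes as control. It became 2 with normexp or a variance trend, 0 with 75th percentile scaling, the deposited values or a floor of 1, and 0 to 1 without single arrays. Among all 32801 probes 1184 were called, and 4616 at the threshold of the methods, 3097 in 1 fit and 2667 of 34144 with both sexes. With normexp 1502 were called, with the variance trend 1298, and with 75th percentile scaling 866. With the deposited values 617 were called, with a floor of 1 599, and without single arrays 162 to 1043. Replicate numbers were not shown to pair clones with IVF embryos (r from -0.12 to 0.10), and with them as a block 0 member probes, and 0 of all probes, were called in either comparison, and 8 over all embryos. Paired by number, male and female IVF embryos gave 0 member calls, as without the block, and 0 of all probes in place of 19, and fusion and injection clones 0. For single probes, 1243 values under other settings kept their side of the threshold, 34 lost the call, 17 gained it and 23 moved by more than the spread. No called value changed sign, whereas values not called did for several probes, such as Klf4 in fusion clones (0.44, and -0.33 with male IVF embryos as control). Other scalings moved the share of higher among all called probes: in fusion clones from 1409 of 3033 to 1569 of 2519 (deposited values), in injection clones from 497 of 1184 to 463 of 866 (75th percentile) and 392 of 617 (deposited), and over all embryos from 2933 of 7199 to 4531 of 8271 (deposited). The causes were not tested. Signal over background limits the dimmer Tbx3 and Esrrb probes, which sat at the floor in most IVF embryos.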
